A study of Mus musculus with 6 samples.

Results

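The genes described here encode the transcription factor NRF2, its inhibitor KEAP1, and NRF2 targets that make or recycle glutathione or otherwise handle oxidants. They were chosen by gene symbol, and all 10 were found among the 20327 symbols counted (*Nfe2l2*, *Keap1*, *Nqo1*, *Hmox1*, *Gclc*, *Gclm*, *Txnrd1*, *Srxn1*, *Slc7a11* and *Gsr*). IL-11+ and IL-11- stromal cells of the inflamed mouse colon were compared by 5′Tag-seq, which counts tags near the 5′ ends of polyadenylated RNA. Both groups came from the colon of C57BL/6 mice with the *Il11-Egfp* reporter, 9 to 15 weeks old, that drank 1.5% dextran sulfate sodium (DSS) for 5 days and then plain water. On day 7, live cells negative for Ter119, CD45, CD31 and EpCAM were sorted into the groups EGFP-Positive (EGFP+, n = 3 libraries) and EGFP-Negative (EGFP-, n = 3 libraries). The groups therefore share the reporter and the DSS, and no untreated animals were part of the comparison.

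The reporter is a bacterial artificial chromosome transgene in which *Egfp* is read from the *Il11* promoter, so the sort follows activity of the transgene and not IL-11 protein. *Il11* itself, which checks the sort, had 28, 51 and 89 tags in the EGFP- libraries and 1357, 732 and 2658 tags in the EGFP+ libraries. All EGFP+ libraries stood above all EGFP- libraries, and the log2 fold change was 4.98 (SE 0.393; edgeR, Benjamini-Hochberg adjusted p = 1.01e-07). In the transgene, *Egfp* and a polyA signal lie within *Il11*, so its RNA may carry the *Il11* 5′ end that the method counts. The part of the transgene in the *Il11* tags was not tested, so this check may not be independent of the sort. Totals ran from 1022851 to 1169817 tags per library. A floor of 3 tags corresponds to 2.46 to 3.18 normalized CPM (tag counts scaled to a common library size), and it covers counting error only.

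Under resting conditions KEAP1 binds NRF2 and directs it to degradation by the proteasome, and oxidants or electrophiles that modify KEAP1 let NRF2 build up in the nucleus. There it pairs with small MAF proteins on antioxidant response elements of genes for glutathione synthesis, thioredoxin recycling, quinone reduction and heme breakdown. DSS colitis exposes colonic cells to oxidants from infiltrating leukocytes, and much of the control of NRF2 acts on its protein, which RNA counts do not measure.

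Between EGFP+ and EGFP- cells, *Nfe2l2* RNA had a modestly higher mean in the EGFP+ cells. Its adjusted p was 0.0458 in edgeR, near the threshold, and over 0.05 in DESeq2 (0.0609) and most fits leaving out 1 library. None of the tested genes of the set passed the threshold used for calls. *Hmox1*, *Slc7a11* and *Gclc* had higher means in EGFP+ cells, with a large spread between libraries, and *Hmox1* was called higher once the replicate number was fitted as a block. *Txnrd1* and *Srxn1* had slightly lower means, and *Keap1* and *Gclm* had means close to each other in both groups. A gene was called when edgeR's quasi-likelihood test gave a Benjamini-Hochberg adjusted p under 0.05 and the fold change was over 2. Of the 10 genes, 9 had enough tags to be tested (at least 10 tags in at least 3 libraries), and *Nqo1* had not.

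With edgeR, 0 of the 9 were called higher and 0 lower, against 3.44% (321) and 6.37% (595) of all 9334 tested genes. At an unadjusted p under 0.05, 4 of the 9 were higher and 0 lower, against 12.2% and 14.5% of all tested genes. DESeq2 called 0 of the 9 in either direction, against 3.04% (284) higher and 5.17% (483) lower of all tested genes. By the adjusted p of edgeR alone, 1 of the 9 was higher (*Nfe2l2*) and 0 lower, against 6.84% and 8.70% of all tested genes. With the replicate number as a block, edgeR called 1 gene higher (*Hmox1*) and 0 lower, against 3.61% and 6.94% of all tested genes. By the adjusted p alone, that fit gave 4 genes higher (*Nfe2l2*, *Hmox1*, *Gclc* and *Slc7a11*) and 0 lower, against 9.33% and 11.2%. The groups did not overlap for 2 genes with higher EGFP+ values (*Nfe2l2* and *Slc7a11*) and 0 with lower ones, against 14.5% and 16.7% of all tested genes. The median log2 fold change of the 9 was 0.51, and that of all tested genes was -0.01.

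*Nfe2l2* (chr2:75675513-75704641, minus strand; GRCm38) encodes NRF2. It had 210, 223 and 288 tags in the EGFP- libraries and 268, 273 and 381 tags in the EGFP+ libraries. In normalized CPM these were 200.5, 210.1 and 236.5 against 284.0, 277.2 and 363.3, so that every EGFP+ library was above every EGFP- library and replicate 3 was the highest of each group. The mean was 308.2 ± 47.9 normalized CPM in EGFP+ cells and 215.7 ± 18.6 in EGFP- cells (SD, n = 3 libraries each). Its log2 fold change was 0.51 (SE 0.169), and the adjusted p of edgeR was 0.0458 (Benjamini-Hochberg), close to the threshold. The fold change was under 2, so *Nfe2l2* was not called. Among the fits that left out 1 library, the adjusted p stayed under 0.05 only without EGFP-Negative replicate 3 (edgeR, adjusted p = 0.0424). Without EGFP-Negative replicate 1 or 2 the adjusted p of edgeR was 0.149 or 0.139, and without EGFP-Positive replicate 1, 2 or 3 it was 0.0514, 0.063 or 0.187. With DESeq2 the adjusted p was 0.0609, and over all alternatives it ran from 0.00629 to 0.187.

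The tested genes whose pattern over the 6 libraries was most like that of *Nfe2l2* were *Hs3st1* (Pearson r = 0.996), *Stk17b* (r = 0.994) and *Srp72* (r = 0.993), out of 9333 compared. These r values rest on 6 libraries that fall into the sorted groups, and they are given as a description.

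*Keap1* (chr9:21229730-21239361, minus strand) encodes the adaptor that targets NRF2 for degradation. Its tags numbered 27, 31 and 56 in EGFP- and 30, 41 and 36 in EGFP+ libraries. The groups overlapped, with the lowest and the highest values both in the EGFP- group. The log2 fold change was 0.08 (SE 0.266; edgeR, Benjamini-Hochberg adjusted p = 0.887), and its sign turned with scaling by library size (-0.0036). Within a library, the log2 ratio of *Nfe2l2* to *Keap1* was 2.94, 2.83 and 2.35 in EGFP- and 3.14, 2.72 and 3.39 in EGFP+ cells. These overlapped, and the mean difference of 0.38 gave p = 0.3 in a two-sided exact permutation test (adjusted over the ratios examined, p = 0.3).

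*Hmox1* (chr8:75093621-75100589, plus strand) encodes heme oxygenase-1, which opens the heme ring and releases iron, carbon monoxide and biliverdin. It had 322, 117 and 536 tags in the EGFP- libraries and 539, 223 and 1003 tags in the EGFP+ libraries. The groups overlapped, because replicate 2 was low and replicate 3 high in both. Within each replicate number the EGFP+ library was higher, by 0.89, 1.04 and 1.12 on the log2 scale. Of all tested genes, 23.5% were higher in the EGFP+ library of all 3 numbers.

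The mean *Hmox1* level was 584.7 ± 365 normalized CPM in EGFP+ and 285.9 ± 166 in EGFP- cells (SD, n = 3 libraries each). Without a block the log2 fold change was 1.03 (SE 0.406), and the adjusted p of edgeR was 0.101 (Benjamini-Hochberg). With the replicate number as a block, *Hmox1* was called higher, at a log2 fold change of 1.02 (SE 0.144; edgeR, adjusted p = 1.81e-07). In that fit the SE and adjusted p rest more on the spread shared across genes than without the block. The adjusted p of *Hmox1* over all alternatives ran from 3.98e-08 to 0.632. Without the block, *Hmox1* was also called without EGFP-Negative replicate 3 (log2 fold change 1.49; edgeR, adjusted p = 0.0266) and without EGFP-Positive replicate 2 (1.42; edgeR, adjusted p = 0.0176). In the blocked fit on numbers 1 and 2 alone it was 0.96, under the fold threshold, and *Hmox1* was not called (edgeR, adjusted p = 6.24e-07). Without the block, its log2 fold change fell to 0.65 without EGFP-Negative replicate 2 (edgeR, adjusted p = 0.356) and to 0.47 without EGFP-Positive replicate 3 (edgeR, adjusted p = 0.485).

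Erythrocytes and macrophages handle heme, and their markers, with those of neutrophils, were examined beside *Hmox1*. The 6 erythroid markers summed to 95, 0 and 372 tags in EGFP- and 18, 2 and 20 tags in EGFP+ libraries, with *Hbb-bs* the most abundant. They were thus lowest in replicate 2 of each group, as *Hmox1* was, but higher in EGFP- replicates 1 and 3 than in any EGFP+ library. The 9 leukocyte and macrophage markers counted summed to 43, 56 and 42 tags in EGFP- and 54, 48 and 29 tags in EGFP+ libraries, and *Csf1r* had at most 2 tags in any library. The 2 of them that were tested were called in opposite directions. *Cd14*, the most abundant, had 10, 4 and 5 tags in EGFP- and 36, 31 and 13 in EGFP+ libraries (log2 fold change 2.22; edgeR, Benjamini-Hochberg adjusted p = 0.00239). *Cd74* had 12, 24 and 15 tags against 2, 4 and 10 (log2 fold change -1.50; edgeR, adjusted p = 0.0468; DESeq2, adjusted p = 0.0977). Among fits that left out 1 library, *Cd74* was called only without EGFP-Positive replicate 3 (-2.26; edgeR, adjusted p = 0.0117), its adjusted p otherwise being 0.0501 to 0.237. Of the markers too low to be tested, *Ptprc*, *Lyz2*, *Itgam*, *C1qa* and *C1qb* had summed tags of 10, 15, 7, 9 and 10 in EGFP- libraries. In EGFP+ libraries these sums were lower, at 3, 4, 3, 1 and 1, while *Cd68* (17 against 19) and *Csf1r* (3 against 4) hardly differed. The 5 neutrophil markers counted summed to 25, 21 and 29 tags in EGFP- and 45, 22 and 37 in EGFP+ libraries, also lowest in replicate 2 of each group but, unlike *Hmox1*, highest in EGFP-Positive replicate 1 rather than 3. *Cxcr2*, the most abundant and the only one tested, had 20, 14 and 21 tags against 21, 16 and 23, with overlapping groups (log2 fold change 0.28, SE 0.313; edgeR, adjusted p = 0.619). *S100a8*, too low to be tested, had 2, 4 and 2 tags against 13, 1 and 12. The part of these cells in the *Hmox1* values was not tested.

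*Slc7a11* (chr3:49892526-50443614, minus strand) encodes the cystine/glutamate exchanger that supplies cysteine for glutathione. It had 16, 15 and 19 tags in EGFP- and 24, 16 and 48 tags in EGFP+ libraries. In normalized CPM the EGFP- libraries lay close together at 15.3, 14.1 and 15.6, and the EGFP+ libraries were spread at 25.4, 16.3 and 45.8. The groups did not overlap, although EGFP-Positive replicate 2 was only just above the EGFP- libraries. A log2 fold change of 0.96 (SE 0.355) was found, with an adjusted p of 0.0785 in edgeR (Benjamini-Hochberg) and of 0.0318 in the blocked fit. Over all alternatives the adjusted p ran from 0.0233 to 0.485. *Slc7a11* was called without EGFP-Positive replicate 2 (log2 fold change 1.25; edgeR, adjusted p = 0.0233), and without EGFP-Positive replicate 3 the log2 fold change was 0.47 (edgeR, adjusted p = 0.473).

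The first step of glutathione synthesis is catalyzed by glutamate-cysteine ligase, a dimer of the catalytic subunit GCLC and the modifier subunit GCLM. *Gclc* (chr9:77754535-77794485, plus strand) had 43, 28 and 63 tags in EGFP- and 59, 48 and 80 tags in EGFP+ libraries. The groups overlapped, while each EGFP+ library was above the EGFP- library of its own number, by 0.60, 0.87 and 0.56 on the log2 scale, as for 23.5% of all tested genes. The log2 fold change of *Gclc* was 0.65 (SE 0.252), with an adjusted p of 0.097 in edgeR (Benjamini-Hochberg) and of 0.0202 in the blocked fit. Over all alternatives the adjusted p of *Gclc* ran from 0.0183 to 0.346, and it was 0.0381 in edgeR without EGFP-Negative replicate 3. The log2 fold change of *Gclc* ran from 0.43 without EGFP-Negative replicate 2 (edgeR, adjusted p = 0.346) to 0.89 without EGFP-Negative replicate 3.

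*Gclm* (chr3:122245557-122270732, plus strand) had 28, 26 and 36 tags in EGFP- and 28, 13 and 36 tags in EGFP+ libraries. Its groups overlapped, with EGFP-Positive replicate 2 below all others, and the log2 fold change was -0.06 (SE 0.315; edgeR, Benjamini-Hochberg adjusted p = 0.929). Without that library it was 0.25 (edgeR, adjusted p = 0.676). The log2 ratio of *Gclc* to *Gclm* within a library was 0.61, 0.105 and 0.797 in EGFP- and 1.06, 1.84 and 1.14 in EGFP+ cells. All EGFP+ ratios were above all EGFP- ratios, by 0.85 on average (two-sided exact permutation test, p = 0.1, the smallest p that 3 against 3 libraries can give; adjusted p = 0.2).

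*Gsr* (chr8:33652523-33698163, plus strand) encodes glutathione reductase, which returns oxidized glutathione to its reduced form. It was close to the lower limit for testing, at 7, 10 and 10 tags in EGFP- and 15, 8 and 14 tags in EGFP+ libraries. The groups overlapped, and the log2 fold change of 0.61 (SE 0.412) was within this spread (edgeR, Benjamini-Hochberg adjusted p = 0.385).

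*Txnrd1* (chr10:82833951-82897712, plus strand) encodes cytosolic thioredoxin reductase. It had 158, 136 and 176 tags in EGFP- and 111, 97 and 138 tags in EGFP+ libraries. In normalized CPM these were 150.9, 128.1 and 144.5 against 117.6, 98.5 and 131.6, so that EGFP-Positive replicate 3 lay above the lowest EGFP- library. Its log2 fold change was -0.28 (SE 0.172; edgeR, Benjamini-Hochberg adjusted p = 0.319). It was lower in the EGFP+ library of each replicate number (-0.36, -0.38 and -0.14 on the log2 scale), as were 25.3% of all tested genes.

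*Srxn1* (chr2:152105516-152111376, plus strand) encodes sulfiredoxin, which repairs overoxidized peroxiredoxins. Its tags numbered 60, 74 and 127 in EGFP- and 49, 60 and 84 in EGFP+ libraries, with overlapping groups and replicate 3 the highest of each. The log2 fold change of *Srxn1* was -0.26 (SE 0.232; edgeR, Benjamini-Hochberg adjusted p = 0.518) and was 0.02 without EGFP-Negative replicate 3 (edgeR, adjusted p = 0.973). *Srxn1* too was lower in the EGFP+ library of all 3 numbers, at -0.14, -0.19 and -0.38.

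*Nqo1* (chr8:107388225-107403206, minus strand), the quinone reductase often used as a readout of NRF2, had 4, 10 and 7 tags in EGFP- and 2, 3 and 9 tags in EGFP+ libraries. These values overlapped and included 1 library under the floor of 3 tags and 1 at it. In a fit with no filter on low genes, the log2 fold change of *Nqo1* was -0.39 (SE 0.609; edgeR, Benjamini-Hochberg adjusted p = 0.755), smaller in size than its SE. That fit gave every gene the same shared spread between libraries.

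**Figure D1:**
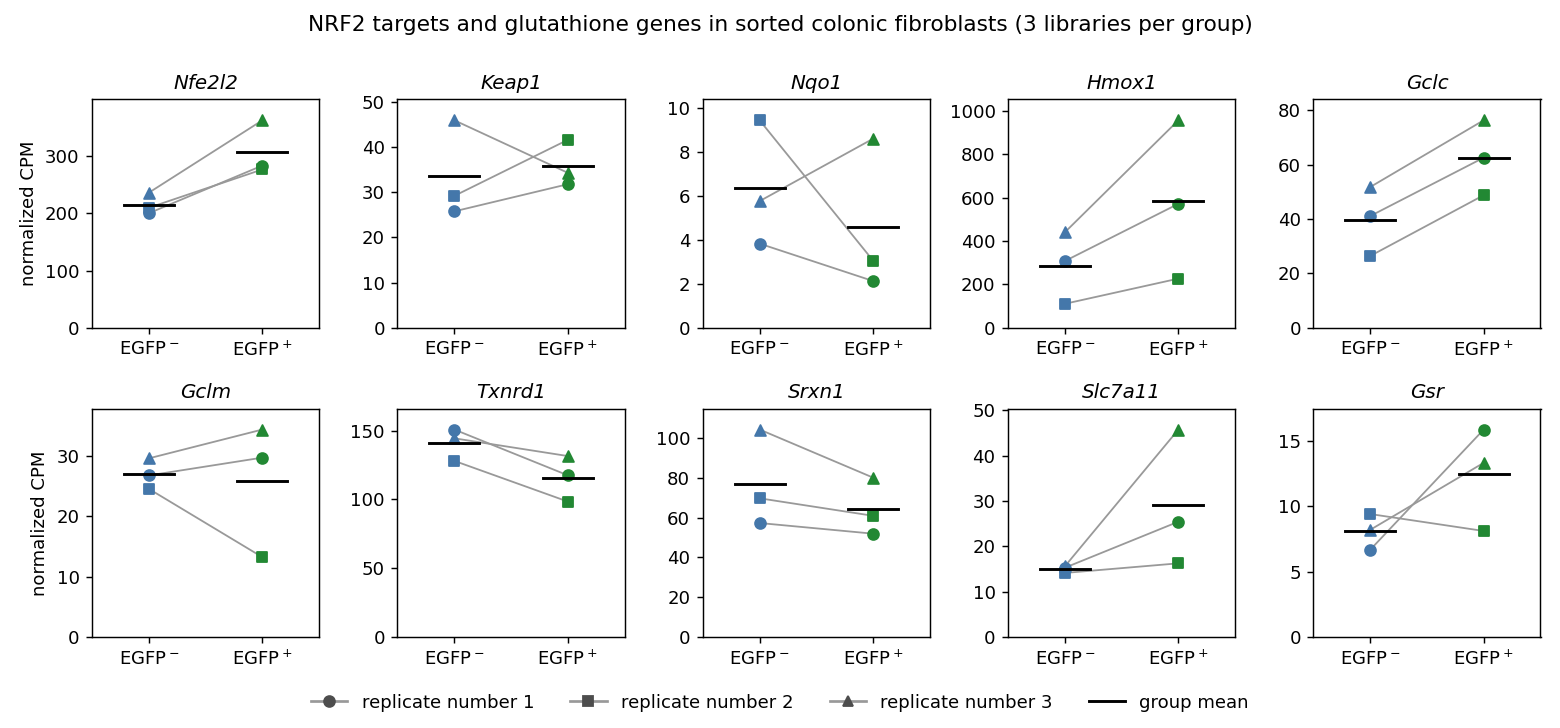
Normalized CPM (vertical axes, starting at 0) of the 10 genes in each EGFP- and EGFP+ library, with lines joining libraries of the same replicate number and bars at the group means (n = 3 libraries each). *Hmox1* and *Gclc* lie higher in the EGFP+ library of every replicate number while their groups overlap (23.5% of all tested genes are higher in all 3 numbers). *Nfe2l2* and *Slc7a11* have groups that do not overlap, as have 14.5% of all tested genes with higher EGFP+ values.

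The sorted cells had the markers of fibroblasts. All 10 fibroblast markers were tested, and *Dcn*, *Col1a1* and *Pdgfra* had at least 400 tags in every library. The 10 summed to 23908, 24315 and 30779 tags in EGFP- and 40668, 34334 and 32432 in EGFP+ libraries. *Col3a1* and *Pdpn* were called higher (log2 fold changes 1.04 and 1.06; edgeR, Benjamini-Hochberg adjusted p = 0.00134 and 0.000256). *Col3a1* was under the fold threshold without EGFP-Negative replicate 1 (0.85), and *Pdpn* without EGFP-Negative replicate 1 or EGFP-Positive replicate 1 (0.96 each). Both were also under it with scaling by library size (0.955 and 0.968) and in the blocked fit without number 1 (0.86 each). By the adjusted p alone *Dcn* (0.67) and *Thy1* (0.88) were also higher and *Lum* (-0.64) lower (edgeR, adjusted p = 0.0462, 0.00832 and 0.0378). Each of these 3 lost this in at least 1 of the fits that left out 1 library, with adjusted p up to 0.227, 0.0638 and 0.198. *Pecam1* and *Epcam*, which mark the endothelial and epithelial cells removed by the sort, had at most 1 tag in any library. The 5 endothelial markers counted still summed to 38, 27 and 45 tags in EGFP- and 17, 8 and 7 in EGFP+ libraries, with *Tek* the most abundant. The 8 markers of smooth muscle cells and pericytes were all lower in EGFP+ cells (median log2 fold change -3.92), with summed tags of 4642, 5111 and 6699 in EGFP- and 277, 327 and 557 in EGFP+ libraries and *Rgs5* the most abundant. The 5 markers of enteric glia summed to 225, 226 and 217 tags in EGFP- and 143, 165 and 88 in EGFP+ libraries, with *Ncam1* the most abundant and *Sox10* and *S100b* at 0 in all EGFP+ libraries. In bulk RNA of sorted cells, fewer cells of a type and less RNA per cell cannot be told apart. The part of these cells in the differences given here was not tested. Nor was it tested for the NRF2 and glutathione genes described above or for the gene groups that follow.

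Among regulators of NRF2, 8 of 10 genes were tested, 0 were called in edgeR and 0 in DESeq2, and by the adjusted p of edgeR alone 0 were higher and 2 lower (at an unadjusted p under 0.05, 1 higher and 2 lower). Of all tested genes, 3.44% and 6.37% were called higher and lower, 6.84% and 8.70% passed the adjusted p alone and 12.2% and 14.5% the unadjusted p. DESeq2 called 3.04% and 5.17% of them. Both that fell, *Mafk* and *Maff*, encode small MAF proteins, which partner NRF2 on DNA. *Mafg*, the other small MAF gene of the list, had a log2 fold change of 0.32 (SE 0.232; edgeR, Benjamini-Hochberg adjusted p = 0.415). *Mafk* had 150, 140 and 147 tags in EGFP- and 92, 72 and 81 in EGFP+ libraries, and *Maff* had 272, 329 and 308 against 178, 192 and 200. For each of them all EGFP+ libraries were below all EGFP- libraries, as for 16.7% of all tested genes. The log2 fold change was -0.68 for *Mafk* (SE 0.177; edgeR, Benjamini-Hochberg adjusted p = 0.0128) and -0.52 for *Maff* (SE 0.161; adjusted p = 0.035). *Mafk* was past the threshold neither without EGFP-Negative replicate 1 nor without EGFP-Positive replicate 2 (edgeR, adjusted p = 0.0536 and 0.0813). *Maff* was past it, among fits that left out 1 library, only without EGFP-Negative replicate 3, and its adjusted p was otherwise 0.0575 to 0.182. Nor was *Maff* past it in DESeq2 (adjusted p = 0.0671) or with no filter on low genes (edgeR, adjusted p = 0.0905). *Sqstm1*, whose product p62 binds KEAP1, was the most abundant regulator, with a log2 fold change of 0.01 (SE 0.179; edgeR, adjusted p = 0.988) whose sign turned with scaling by library size (-0.07) and iterative TMM (-5e-04).

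Genes that supply or use glutathione moved in both directions. Of 26 counted, 20 were tested, 3 were called higher and 3 lower, and by the adjusted p of edgeR alone 3 were higher and 5 lower. The shares of all tested genes were 3.44% and 6.37% called and 6.84% and 8.70% by the adjusted p alone. Their median log2 fold change was -0.21. In the blocked fit 3 were called higher and 3 lower, against 3.61% and 6.94% of all tested genes. By its adjusted p alone 4 were higher and 6 lower, against 9.33% and 11.2%. That fit added *Gstp1* (log2 fold change 0.51; edgeR, adjusted p = 0.00957, and 0.0626 without the block) and *Gpx1* (-0.45; edgeR, adjusted p = 0.0215, and 0.158 without the block). The genes called higher were *Glrx*, which encodes glutaredoxin, *Abcc1*, which encodes a transporter that exports glutathione conjugates, and *Gsto1*, an omega-class glutathione transferase. *Glrx* had 16, 19 and 24 tags in EGFP- and 88, 58 and 50 in EGFP+ libraries, with no overlap (log2 fold change 1.90, SE 0.282; edgeR, Benjamini-Hochberg adjusted p = 9.63e-05). *Abcc1* had a log2 fold change of 1.37 (SE 0.236; edgeR, adjusted p = 0.000428). *Gsto1* had 1.14 (SE 0.281; edgeR, adjusted p = 0.00809), and without EGFP-Positive replicate 1 it had 0.77 and was no longer called (edgeR, adjusted p = 0.076).

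The genes called lower encode glutathione transferases of the alpha, mu and microsomal classes. *Gsta3* had 151, 59 and 119 tags in EGFP- and 9, 7 and 7 tags in EGFP+ libraries, every EGFP+ library being far below every EGFP- library (log2 fold change -3.66, SE 0.361; edgeR, Benjamini-Hochberg adjusted p = 9.7e-07). *Mgst3* had 33, 34 and 47 tags against 3, 8 and 10 (log2 fold change -2.26, SE 0.357; edgeR, adjusted p = 0.000179). *Gstm1* had 373, 337 and 409 tags against 109, 142 and 152 (log2 fold change -1.32, SE 0.167; edgeR, adjusted p = 1.72e-05). None of these 3 genes overlapped between groups, as for 16.7% of all tested genes with lower EGFP+ values. *Ggt5*, a gamma-glutamyltransferase of the cell surface, and *Gstt1* passed the adjusted p alone, at -0.77 and -0.80 (edgeR, adjusted p = 0.013 and 0.0328). *Ggt5* lost this without EGFP-Negative replicate 1 or EGFP-Positive replicate 1 (adjusted p = 0.0504 and 0.0664). *Gstt1* lost it without EGFP-Negative replicate 2 or 3 or EGFP-Positive replicate 1 or 2 (adjusted p = 0.115 to 0.153) and was called without EGFP-Positive replicate 3 (-1.05, adjusted p = 0.00951). It also lost it in DESeq2 (adjusted p = 0.0742). The most abundant genes of the group, *Gpx3* and *Mgst1*, had log2 fold changes of -0.23 and -0.28 (edgeR, adjusted p = 0.612 and 0.347), and that of *Gpx3* was 0.02 without EGFP-Negative replicate 1 and 0.0030 without EGFP-Positive replicate 3.

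In the thioredoxin and peroxiredoxin system, 10 of 11 genes were tested, 1 was called higher and 1 lower (against 3.44% and 6.37% of all tested genes), and the median log2 fold change was 0.04. *Prdx5*, a peroxiredoxin of mitochondria and peroxisomes, had 160, 115 and 151 tags in EGFP- and 415, 245 and 311 in EGFP+ libraries. *Txnip*, an inhibitor of thioredoxin, had 678, 452 and 397 tags against 242, 190 and 140. Neither gene overlapped between the groups, as for 14.5% of all tested genes with higher and 16.7% with lower EGFP+ values. Their log2 fold changes were 1.35 for *Prdx5* (SE 0.209; edgeR, Benjamini-Hochberg adjusted p = 0.000141) and -1.26 for *Txnip* (SE 0.245; adjusted p = 0.00124). Without EGFP-Negative replicate 1, *Txnip* stood at -0.95, under the fold threshold (edgeR, adjusted p = 0.0113). *Prdx1*, the most abundant of the group, had a log2 fold change of 0.19 (SE 0.155; edgeR, adjusted p = 0.473).

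Glutathione and thioredoxin reductases draw on NADPH. Of 7 genes of NADPH supply 6 were tested, 1 was called higher and 0 lower, and 2 were higher by the adjusted p alone (at an unadjusted p under 0.05, 3 higher and 0 lower; DESeq2 called 1 higher and 0 lower). Of all tested genes, 3.44% and 6.37% were called, 6.84% and 8.70% passed the adjusted p alone and 12.2% and 14.5% the unadjusted p, and DESeq2 called 3.04% and 5.17%. The median log2 fold change was 0.42. *G6pdx* and *Pgd* encode the NADPH-producing dehydrogenases of the pentose phosphate pathway. *G6pdx* had 12, 16 and 18 tags in EGFP- and 38, 29 and 26 in EGFP+ libraries, without overlap (2.26-fold higher, SE 0.306 on the log2 scale; edgeR, Benjamini-Hochberg adjusted p = 0.0121). It was not called without EGFP-Negative replicate 1 or without EGFP-Positive replicate 1 (edgeR, adjusted p = 0.0531 and 0.071). *Pgd* rose by 0.93 on the log2 scale (SE 0.211; edgeR, adjusted p = 0.00462), and it was over the fold threshold without EGFP-Negative replicate 3 (1.06) or EGFP-Positive replicate 2 (1.05). *Taldo1* and *Tkt*, of the non-oxidative arm, had log2 fold changes of 0.63 and 0.20 (edgeR, adjusted p = 0.113 and 0.593). The adjusted p of *Taldo1* was 0.0459 in the blocked fit and 0.0659 in the blocked fit with a robust prior, and over all alternatives it ran from 0.0088 to 0.855. Its log2 fold change was 0.86 without EGFP-Positive replicate 2 (edgeR, adjusted p = 0.0377) and 0.25 without EGFP-Positive replicate 1 (edgeR, adjusted p = 0.58). Within the replicate numbers, *Taldo1* differed by 1.56, -0.15 and 0.31 on the log2 scale.

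Among 8 genes of heme and iron handling, all tested, 0 were called in edgeR or DESeq2, and 2 were higher and 0 lower by the adjusted p alone, as at an unadjusted p under 0.05. Among all tested genes these shares were 6.84% and 8.70% by the adjusted p alone and 12.2% and 14.5% unadjusted. Those called were 3.44% and 6.37% in edgeR and 3.04% and 5.17% in DESeq2. *Fth1*, the ferritin heavy chain that oxidizes and stores iron, had 3391, 3049 and 2566 tags in EGFP- and 6046, 4435 and 4236 in EGFP+ libraries. *Slc48a1*, a heme transporter, had 54, 58 and 84 tags against 103, 82 and 136. Both had EGFP+ libraries entirely above the EGFP- libraries, as had 14.5% of all tested genes. In log2 fold change, EGFP+ cells differed by 0.86 for *Fth1* (SE 0.210; edgeR, Benjamini-Hochberg adjusted p = 0.00762) and 0.87 for *Slc48a1* (SE 0.203; adjusted p = 0.00535). The fold threshold was also passed by *Fth1* without EGFP-Negative replicate 1 (1.0012) and by *Slc48a1* without EGFP-Negative replicate 3 (1.02) or EGFP-Positive replicate 2 (1.03). *Ftl1*, the ferritin light chain, had a log2 fold change of 0.18 (SE 0.166; edgeR, adjusted p = 0.538).

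Of 12 further genes described as NRF2 targets 9 were tested, 2 were called higher and 1 lower (against 3.44% and 6.37% of all tested genes), with a median log2 fold change of 0.29. *Ces1g*, a carboxylesterase, had 20, 16 and 9 tags in EGFP- and 116, 146 and 70 in EGFP+ libraries (log2 fold change 3.03, SE 0.325; edgeR, Benjamini-Hochberg adjusted p = 2.6e-06). *Akr1b8*, an aldo-keto reductase, had 41, 47 and 63 tags against 153, 88 and 95 (log2 fold change 1.33, SE 0.236; edgeR, adjusted p = 0.00057). *Ephx1*, the microsomal epoxide hydrolase, went the other way, with 53, 49 and 38 tags against 7, 6 and 24 (log2 fold change -1.77, SE 0.379; edgeR, adjusted p = 0.00281). The groups did not overlap for any of these 3 genes, as for 14.5% of all tested genes with higher and 16.7% with lower EGFP+ values. *Ephx1* fell further without EGFP-Positive replicate 3 (-2.63; edgeR, adjusted p = 9.07e-05), and in the blocked fit without number 1 it lost the threshold (-1.39; edgeR, adjusted p = 0.0517). Without EGFP-Positive replicate 1, *Akr1b8* stood just under the fold threshold at 0.9984 (edgeR, adjusted p = 0.00399). *Esd* was higher by the adjusted p alone (0.84; edgeR, adjusted p = 0.00451) and over the fold threshold without EGFP-Positive replicate 2 (1.02). *Ugdh*, the most abundant of the group, had a log2 fold change of -0.43 (edgeR, adjusted p = 0.172, and 0.0341 in the blocked fit). In blocked fits on 2 of the numbers the adjusted p of *Ugdh* was 0.0837 to 0.2, and without EGFP-Negative replicate 3 and no block its log2 fold change was -0.17 (edgeR, adjusted p = 0.626).

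All 4 genes of the superoxide dismutases and catalase were tested, 2 were called higher and 0 lower (at an unadjusted p under 0.05 and in DESeq2, also 2 and 0), and the median log2 fold change was 0.40. The shares of all tested genes were 3.44% and 6.37% called, 12.2% and 14.5% at the unadjusted p and 3.04% and 5.17% in DESeq2. *Sod3*, the secreted superoxide dismutase, had 342, 348 and 450 tags in EGFP- and 1347, 1320 and 1251 in EGFP+ libraries. *Sod2*, the mitochondrial enzyme, had 402, 450 and 447 tags against 723, 762 and 939. In both genes the groups were far apart relative to the spread within them. These were log2 fold changes of 1.95 for *Sod3* (SE 0.168; edgeR, Benjamini-Hochberg adjusted p = 2.22e-07) and 1.05 for *Sod2* (SE 0.162; adjusted p = 0.000141). *Sod2* stood just under the fold threshold without EGFP-Positive replicate 3 and with scaling by library size (0.98 each).

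*Slc7a11* is also a target of the stress-response factor ATF4, so a list of ATF4 targets was read beside it. Of its 8 genes 6 were tested, 0 were called in edgeR and 0 in DESeq2, and by the adjusted p of edgeR alone 0 were higher and 1 lower (also 0 and 1 at an unadjusted p under 0.05), with a median log2 fold change of -0.10. By the adjusted p alone 6.84% and 8.70% of all tested genes were higher and lower, and 12.2% and 14.5% unadjusted. Of all tested genes, edgeR called 3.44% and 6.37%, and DESeq2 called 3.04% and 5.17%. The gene that fell was *Ddit3*, which encodes the transcription factor CHOP, with 162, 161 and 165 tags in EGFP- and 91, 108 and 104 in EGFP+ libraries (log2 fold change -0.53, SE 0.165; edgeR, Benjamini-Hochberg adjusted p = 0.0344). Its groups did not overlap, as for 16.7% of all tested genes with lower EGFP+ values. Among fits that left out 1 library it passed the threshold only without EGFP-Negative replicate 3, the adjusted p otherwise being 0.0681 to 0.119. It did not pass in DESeq2 (adjusted p = 0.108) or with no filter on low genes (edgeR, adjusted p = 0.103). *Atf4* had a log2 fold change of -0.15 (SE 0.158; edgeR, adjusted p = 0.589).

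**Figure D2:**
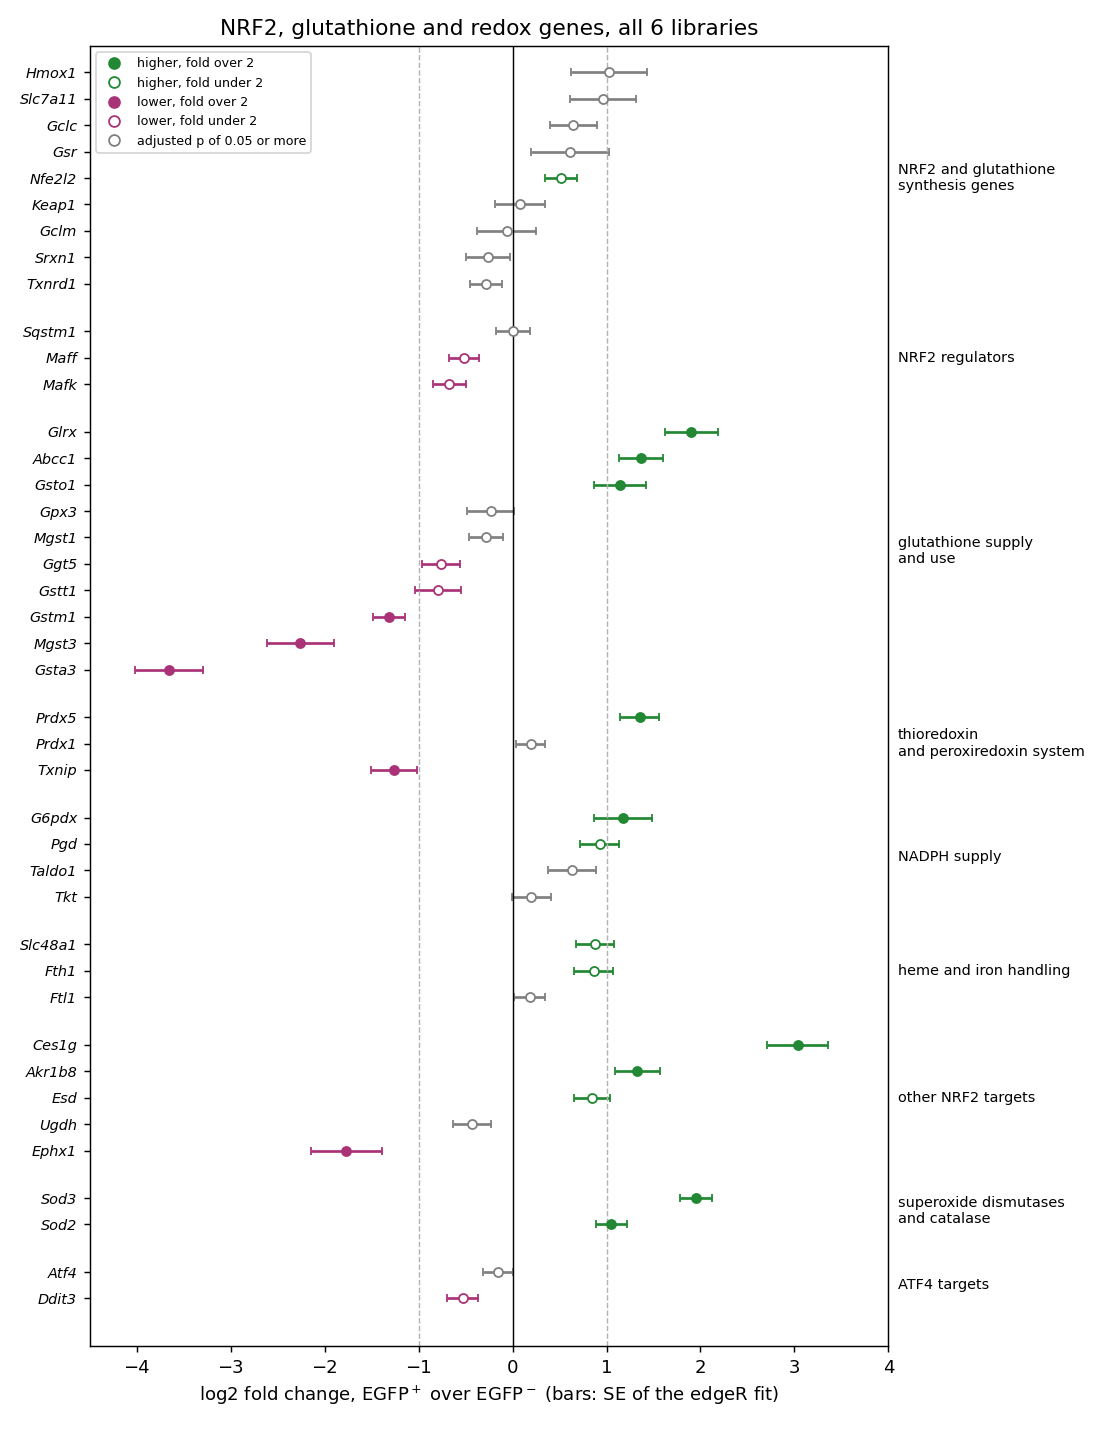
Log2 fold change of EGFP+ over EGFP- cells (horizontal axis, bars are the SE of the edgeR fit, n = 3 libraries each) for the tested NRF2 and glutathione synthesis genes and the named genes of each list, with dashed lines at a fold change of 2. *Ces1g*, *Sod3* and *Glrx* lie farthest to the right and *Gsta3* and *Mgst3* farthest to the left, and *Sqstm1*, near 0, changed sign with the scaling.

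To show what the promoters of these genes hold, the sequence from 250 bases before to 50 after each transcription start was taken from RefSeq (GRCm38.p6), where 7 of the 10 genes were matched, with 9 promoters in all. *Hmox1*, *Gclc* and *Gsr* were not matched. The motifs, searched on both strands, were the core of the antioxidant response element (TGACNNNGC), the AP-1 site (TGANTCA), an AP-1 site followed by GC (TGANTCAGC) and the core of the amino acid response element bound by ATF4 (TGATGCAA). Every TGANTCAGC contains a TGANTCA, and it also matches TGACNNNGC where its first N is C. TGACNNNGC was found in 12.4% of all 32851 promoters and in 4 of the 9 (*Nfe2l2*, *Gclm*, *Txnrd1* and *Srxn1*). TGANTCA was found in 7.81% of all promoters, TGANTCAGC in 1.19% and TGATGCAA in 0.895%, and each of these was found in 1 of the 9. A match describes letters in a window and does not show that a factor binds there.

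The stretches below are shown for *Nfe2l2*, the gene past the adjusted p, for *Slc7a11*, whose groups did not overlap, and for *Srxn1* and *Txnrd1*, whose means did not rise in EGFP+ cells. Each reads 5′ to 3′ on the strand of its gene, with the matched letters in capitals. The *Nfe2l2* stretch (chr2:75704880-75704913, minus strand) holds TGACNNNGC, and the *Txnrd1* stretch (chr10:82859099-82859137, plus strand) holds it on the opposite strand. The *Txnrd1* stretch lies within the gene coordinates given above, before a start that is downstream of the first base of the gene. Which start the *Txnrd1* tags came from was not tested. The *Slc7a11* stretch (chr3:50443638-50443694, minus strand) holds TGATGCAA once on each strand. The *Srxn1* stretch (chr2:152105407-152105502, plus strand) holds 2 AP-1 sites, the one nearer the start being followed by GC. The TGACNNNGC match of *Srxn1* lies after the start, on the opposite strand, and is not in the stretch shown.
Nfe2l2: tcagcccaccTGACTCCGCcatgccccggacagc
Txnrd1: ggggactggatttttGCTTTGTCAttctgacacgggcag
Slc7a11: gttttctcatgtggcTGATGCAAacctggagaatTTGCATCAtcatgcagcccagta
Srxn1: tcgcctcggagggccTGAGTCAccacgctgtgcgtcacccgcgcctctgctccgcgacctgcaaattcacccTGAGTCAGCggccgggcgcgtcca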

How the data were processed

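The authors trimmed reads with cutadapt 1.18, mapped them to mouse RNA (mm10) with Bowtie2 2.2.5 and deposited a tag count per gene symbol, without normalization, for each library. The handling of tags that match several genes, and of PCR duplicates, is not given in the sources used here. In GENCODE M21 (GRCm38), 0% of 50-nt windows near the 5′ ends of these 10 genes were shared with another gene.

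Totals were 1057170, 1078179 and 1169817 tags for EGFP- and 1046538, 1022851 and 1049048 for EGFP+ libraries. No 2 libraries agreed within sampling noise. A gene was tested when 3 or more libraries held 10 or more of its tags (9334 genes), in 1 fit across all genes in R 4.3.3 with edgeR 4.0.16 (TMM, quasi-likelihood test, Benjamini-Hochberg adjustment) with the thresholds that the methods give (0.05 for the adjusted p, 2 for the fold change). The SE is the log2 fold change over the root of the F statistic. Normalized CPM use TMM library sizes of tested genes. Ratios are differences of log2(CPM + 0.5).

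Replicate numbers come from the labels, and the methods name 3 mice. Across 5063 genes, deviations of same-numbered libraries from their group means correlated at r = 0.23, 0.185 and 0.261, so the numbers were taken to pair the libraries in the blocked fit, although no label states that they share a mouse.

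The genes and lists were chosen with earlier results of these data known. Named are the 10 genes and, from each list, genes past either threshold and the 2 most abundant tested genes. The 3 genes most like *Nfe2l2* were taken by Pearson r of log2 CPM. Alternatives were RLE, iterative TMM, library size scaling, DESeq2 1.42.0, other filters, the replicate block, a pseudocount of 2 and each library left out. Chosen after seeing the data were the block on 2 numbers, the fit without number 3 (highest hemoglobin tags), other priors for the spread between libraries, and the motifs TGANTCAGC and TGATGCAA. The priors were added because the unfiltered fit gave *Hmox1* a far smaller adjusted p than the filtered fit did. Marker genes named with their values, *Mafg*, *Gstp1* and *Gpx1* were chosen from fixed lists after their values were seen.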

Additional observations from a re-analysis of the deposited data

How the results depend on the processing

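Over 23 alternative fits, 852 of 961 log2 fold changes of named genes kept their direction and their side of the adjusted p of 0.05, 55 lost the threshold, 36 gained it and 18 changed sign. The 321 genes called higher became 638 by the adjusted p alone, and the 595 called lower became 256 with at least 10 tags in all 6 libraries, where fewer genes are tested. Of the NRF2 and glutathione genes, 0 were called higher in the main fit, 1 with the replicate block, 1, 2 and 0 with the block when number 1, 2 or 3 was left out (*Hmox1* at 0.96 in the last), 2 with no filter on low genes, and 0 to 2 when 1 library was left out. By the adjusted p alone, 1 became 0 with library size scaling, DESeq2, 10 tags in all 6 libraries, or number 3 left out without the block. It became 4 with no filter and with the replicate block, 2 or 3 with the block when number 2 or 3 was left out, and 0 to 3 when 1 library was left out. The prior degrees of freedom for the spread between libraries were 14.2 in the main fit and 45.8 with the replicate block. In the fit with no filter they came out infinite, so that each gene was given the shared spread in place of its own. *Hmox1* then had an adjusted p of 2.09e-07, which became 0.632 with a robust prior and 0.00594 with the newer dispersion method of edgeR. The first value is therefore not read as a call of *Hmox1*, although the counts given here for that fit include it. The same infinite prior arose in the block fit without number 3. With these priors and no filter, 1 and 2 genes were called higher and 3 passed the adjusted p alone. With them and the replicate block, 1 was called and 4 passed, *Hmox1* at adjusted p = 3.98e-08 and 5.57e-08. Signs changed as follows, in no case past the adjusted p. *Keap1* was -0.0036 with library size scaling, -0.0951 in the block fit without number 2 and -0.0754 to 0.38 when 1 library was left out. *Gclm* was 0.19 in the block fit without number 2 and -0.34 to 0.25 when 1 library was left out, *Srxn1* -0.46 to 0.0228 and *Gpx3* -0.48 to 0.019. *Sqstm1* was -5e-04 with iterative TMM, -0.0723 with library size scaling, -0.0349 with 10 tags in all 6 libraries, -0.118 in the block fit without number 3, -0.12 without number 3 and no block, and -0.15 to 0.16 when 1 library was left out. Of the named genes, the replicate block changed the call of *Hmox1* alone, and *Gclc*, *Slc7a11*, *Taldo1*, *Ugdh*, *Gstp1* and *Gpx1* also came under an adjusted p of 0.05 with it, at a fold change under 2. Other than for the prior and the filter, the cause was not tested. *Nqo1* was left out of all fits but those with no filter, because it had too few tags.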
